A study of Homo sapiens with 6 samples.

Results

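The EGR, IER and ZFP36 genes examined here are 9 genes found by their symbol among the 60623 genes of the deposited table: EGR1, EGR2, EGR3, IER2, IER3, IER5, ZFP36, ZFP36L1 and ZFP36L2. They were followed in 6 poly-A RNA libraries of DU145 cells, a widely used human line from prostate cancer that is labelled as wild type in genotype and was grown in serum-containing medium. In 3 libraries the cells had received the solvent DMSO and in 3 they had received 1 µM CCS1477 (also called inobrodib), which blocks the bromodomain shared by the coactivators and acetyltransferases p300 and CBP, in both cases for 24 h. The design is 1 cell line, 1 dose and 1 time point. The labels do not say whether the replicates were separate cultures, so that the p-values reflect the spread among these samples alone, and that spread may be technical. In bulk RNA, fewer cells that express a gene and less RNA per cell cannot be told apart.

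Immediate early genes are transcribed within minutes of a stimulus, from factors that are already in the cell and without new protein synthesis. Serum response factor (SRF) with its ternary complex partners, and CREB, act at many of their promoters downstream of ERK and p38 kinases, and p300 and CBP are coactivators of these factors. EGR1, EGR2 and EGR3 are zinc finger transcription factors that bind GC-rich sites, and EGR1 is often abundant in prostate tumours. IER2, IER3 and IER5 are small proteins without a DNA-binding domain of the zinc finger kind. IER3 takes part in survival signalling, and IER5 assists the heat shock factor HSF1. ZFP36 (tristetraprolin) and its relatives ZFP36L1 and ZFP36L2 bind AU-rich elements in 3′ UTRs and bring the deadenylation machinery to those mRNAs, so that they act as a brake on early response and cytokine transcripts.

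The libraries held 8286883 to 11956748 estimated counts, and 3 counts, taken as the detection floor, stood at 0.256 to 0.368 CPM (counts scaled to a common, TMM-normalized library total). Each of the 7 members with enough counts to test had at least 298 counts in every library. Such floors cover counting error only. The epithelial markers KRT8, KRT18, KRT19, EPCAM and CDH1 were all present, with a summed level of 2191 to 2492 TPM (the authors' per-length transcript abundance) in DMSO and 2127 to 2259 TPM in CCS1477. Of these 5, CDH1, the gene of E-cadherin, was at 0.445-fold and KRT19 at 0.789-fold the DMSO level (Benjamini-Hochberg adjusted p = 1.64e-05 and 0.021 in edgeR), and the other three did not pass. Their part in the results below was not tested. KLK2 and KLK3, which mark the luminal prostate lineage, had 0 counts in every library, and TMPRSS2 did not pass 0.19 TPM. Of 8 leukocyte, endothelial and fibroblast markers, CD3E, DCN, LUM, PECAM1 and PTPRC were at 0 throughout. The summed level of the 8 was 5.44 to 11.02 TPM in DMSO and 4.35 to 5.49 TPM in CCS1477, nearly all of it COL1A1.

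The sequences around the start sites and in the 3′ UTRs are given first for the members on which the results turn. RefSeq promoters of GRCh38.p14, 250 bases before the start site and 50 after it, were at hand for 6 of the 9 members (EGR1, EGR2, IER2, IER5, ZFP36 and ZFP36L1). The 3 printed here belong to the members that were higher after CCS1477, read 5′ to 3′ on the coding strand. Capitals mark CArG boxes (the SRF site), the EGR site GCGNGGGCG, the CRE core TGACG and the TATA box TATAA, each searched on both strands.
EGR1 promoter, chr5:138465229-138465528, plus strand: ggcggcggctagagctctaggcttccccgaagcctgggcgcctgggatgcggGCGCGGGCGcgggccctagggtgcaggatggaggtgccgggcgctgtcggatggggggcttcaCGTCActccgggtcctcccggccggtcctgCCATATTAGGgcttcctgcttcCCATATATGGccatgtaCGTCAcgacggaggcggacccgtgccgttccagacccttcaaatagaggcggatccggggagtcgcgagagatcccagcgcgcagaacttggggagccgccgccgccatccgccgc
IER2 promoter, chr19:13150161-13150460, plus strand: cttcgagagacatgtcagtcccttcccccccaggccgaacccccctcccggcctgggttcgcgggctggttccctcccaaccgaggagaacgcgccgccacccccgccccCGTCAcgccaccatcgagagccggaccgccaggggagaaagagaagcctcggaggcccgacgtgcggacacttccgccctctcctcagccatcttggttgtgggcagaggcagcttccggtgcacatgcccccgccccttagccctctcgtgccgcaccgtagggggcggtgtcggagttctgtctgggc
ZFP36 promoter, chr19:39406597-39406896, plus strand: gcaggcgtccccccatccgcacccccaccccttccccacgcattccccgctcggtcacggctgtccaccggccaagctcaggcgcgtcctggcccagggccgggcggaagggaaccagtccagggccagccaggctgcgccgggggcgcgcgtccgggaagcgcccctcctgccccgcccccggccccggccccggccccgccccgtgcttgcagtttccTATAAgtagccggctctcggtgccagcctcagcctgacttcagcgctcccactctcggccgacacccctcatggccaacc

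The EGR1 window held 2 CArG boxes, at -105 to -96 and -83 to -74 from the start site, where 1.29% of 35116 promoters of that length held any. It also held 2 CRE cores (24.6% of promoters had any) and 1 EGR site (9.43% had any). A CArG box and 2 CRE cores lay in 1 of the 3 EGR2 promoters, with the box at -71 to -62. No CArG match lay in the windows of IER2, IER5, ZFP36 or ZFP36L1, which says only that these letters are not in those 300 bases. IER2 had 1 CRE core and 4 GC boxes (GGGCGG, found in 45.0% of promoters), and ZFP36 had 3 GC boxes and a TATA box at -30 to -26 (20.4% had any). IER5, which did not pass the test below, had a TATA box at -29 to -25. The full CRE TGACGTCA, which contains the core on both strands, lay at -52 to -45 in 1 of the 2 ZFP36L1 promoters, where 1.85% of all promoters had it. No motif of those searched was carried in this window by all 3 members that were higher.

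The ZFP36 family binds AU-rich mRNAs, among which its own transcripts are known to be. The nonamer TTATTTATT, a strong form of that site written as DNA, was searched in the 3′ UTR of the principal GENCODE 29 transcript of each gene. It was present in 4 of the 9 members (44.4%) and in 8.43% of the 12666 tested genes with such a transcript. The shorter ATTTA, which the nonamer contains, was in 8 of the 9 members (88.9%) and in 69.2% of those genes. ZFP36, ZFP36L1 and ZFP36L2 had 1 nonamer each and IER5 had 3 that overlap. IER3 had none but had 6 ATTTA in a 3′ UTR of 737 bases, and EGR1 had 1 ATTTA and IER2 had 0. The sites are printed on the coding strand with 10 bases on either side and the nonamer in capitals, and for IER5 the most upstream of the 3 is shown.
ZFP36 site, GRCh38 chr19:39409196-39409224, plus strand: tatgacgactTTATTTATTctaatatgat
ZFP36L1 site, GRCh38 chr14:68788077-68788105, minus strand: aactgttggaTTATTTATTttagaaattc
ZFP36L2 site, GRCh38 chr2:43223448-43223476, minus strand: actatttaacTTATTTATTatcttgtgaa
IER5 site, GRCh38 chr1:181092443-181092471, plus strand: gtgtcttcctTTATTTATTtatttattta

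The principal GENCODE 29 transcript of each of the 9 members has 1 or 2 exons, a form shared by 6.85% of tested genes with a coding model, whose median is 9 exons. The tested members span a median of 4188 bases against 33059 over those genes, while their transcripts, at a median of 3138 bases, compare with a median of 3176. EGR2, which was not tested, is an exception in span, at 107905 bases. An annotated gene on the opposite strand overlaps EGR3, IER2 and IER3 (for IER3 it is IER3-AS1). The strandedness of the counting is not given in the sources used here, so that reads of these pairs cannot be told apart.

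After 24 h with CCS1477, 3 of the 7 tested members were higher and 1 was lower. EGR1 was at 1.96-fold, ZFP36 at 1.61-fold and IER2 at 1.31-fold the DMSO level, ZFP36L1 was at 0.777-fold, and IER3, IER5 and ZFP36L2 did not pass. By the quasi-likelihood F test of edgeR, with p-values adjusted by the Benjamini-Hochberg method and a threshold of 0.05, 7.23% of 14928 tested genes were higher and 10.7% were lower. The median log2 fold change was 0.02 over the tested members and -0.003 over all tested genes. Groups did not overlap for the same 3 members on the higher side, where 16.5% of tested genes had such a separation, and for ZFP36L1 on the lower side, where 19.3% had it. EGR2 and EGR3 had too few counts to be tested.

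**Figure D1:**
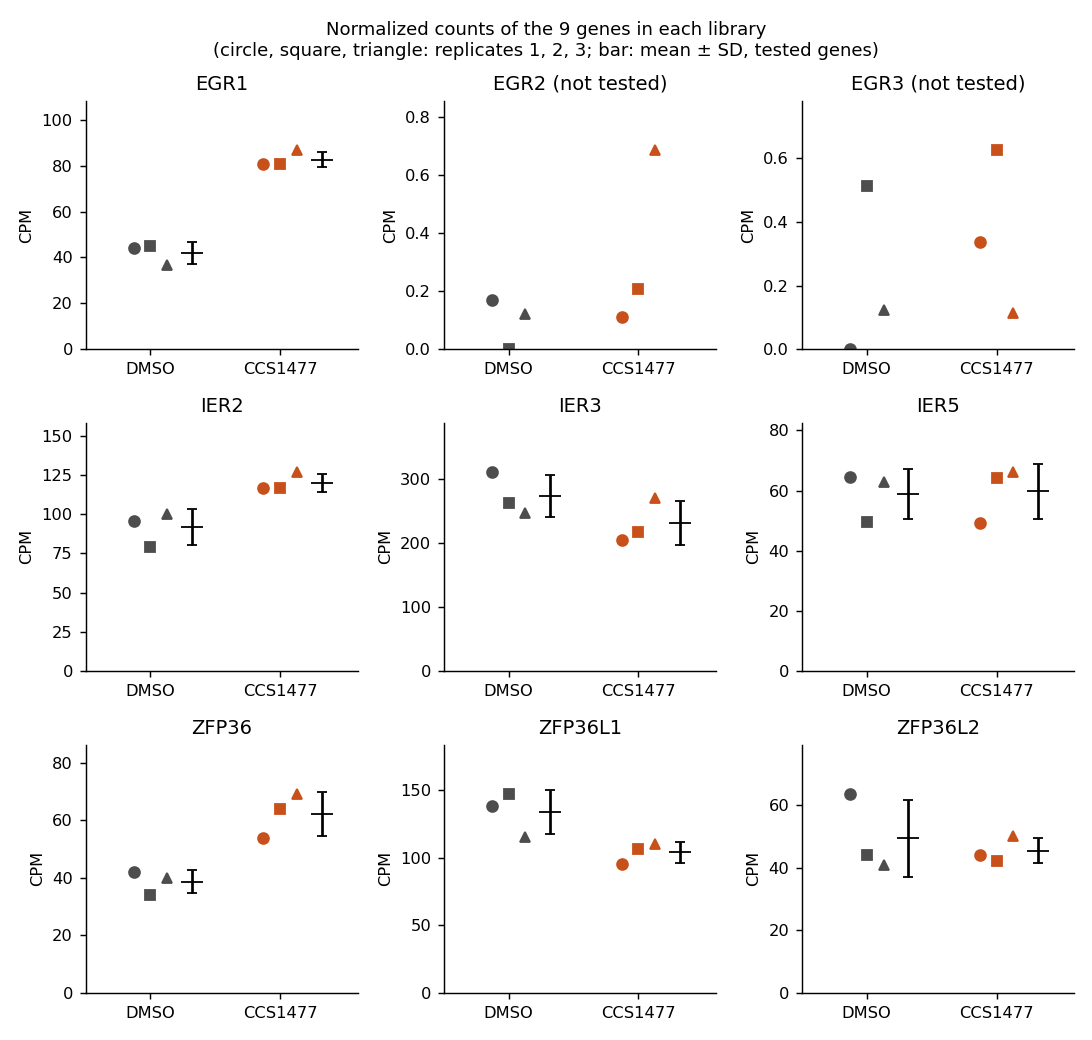
Normalized CPM of the 9 genes, by group on the x axis, with 1 point per library (circle, square and triangle for replicates 1, 2 and 3) and, for tested genes, a bar for the mean ± SD of 3 libraries. The CCS1477 points of EGR1 lie between 80.59 and 86.62 CPM and those of DMSO between 36.59 and 45.15 CPM, whereas the points of IER3, IER5 and ZFP36L2 overlap between the groups.

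EGR1 (ENSG00000120738, chromosome 5, 138465479 to 138469303, plus strand), the zinc finger factor for which the family is named, changed most among the members. It stood at 44.25, 45.15 and 36.59 CPM in DMSO replicates 1, 2 and 3 and at 80.79, 80.59 and 86.62 CPM in CCS1477 replicates 1, 2 and 3. Every CCS1477 library was above every DMSO library, and the treated libraries were close together. The mean went from 42 ± 4.71 to 82.7 ± 3.43 CPM (SD, n = 3), a log2 fold change of 0.97 ± 0.11 (SE, Benjamini-Hochberg adjusted p = 0.000111 in edgeR). By p-value EGR1 ranked 150 of the 14928 tested genes, and its call held in each of 16 alternatives, with log2 fold changes from 0.88 to 1.04. On the TPM scale, which is per length, EGR1 was at 18.9 ± 3.23 in DMSO and 38.6 ± 1.02 in CCS1477.

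EGR2 and EGR3, relatives of EGR1 with roles in myelination and in lymphocyte and neuronal responses, were near the floor. EGR2 (ENSG00000122877, chromosome 10, 62811996 to 62919900) had 2, 0 and 1 counts in DMSO and 1, 2 and 6 in CCS1477, replicates 1 to 3. EGR3 (ENSG00000179388, chromosome 8, 22687659 to 22693480) had 0, 6 and 1 counts in DMSO and 3, 6 and 1 in CCS1477. No difference could be seen at this depth for either gene, and no fold is given. EGR1 thus made up 98.8% ± 0.65 of the summed TPM of the 3 EGR genes in DMSO and 98.6% ± 0.506 in CCS1477 (SD, n = 3), and the sum went from 19.1 ± 3.36 to 39.1 ± 0.981 TPM (two-sided exact permutation p = 0.1, the smallest that 3 against 3 allows).

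IER2 (ENSG00000160888, chromosome 19, 13150411 to 13154911, plus strand), a nuclear protein of the early response, rose by a smaller step. Its values were 95.84, 79.02 and 100.3 CPM in DMSO and 116.6, 116.8 and 126.6 CPM in CCS1477, replicates 1 to 3. The groups did not overlap, with DMSO 2 the lowest library and CCS1477 3 the highest. The log2 fold change was 0.39 ± 0.10 (SE, Benjamini-Hochberg adjusted p = 0.0228 in edgeR). The call did not hold without DMSO 1 (adjusted p = 0.0524), CCS1477 2 (0.0683) or CCS1477 3 (0.0993) in the same edgeR test, nor in limma on log2(TPM + 1) or log2(TPM + 0.1), where the log2 differences were 0.47 and 0.47 and the adjusted p = 0.065 and 0.0674.

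IER3 (ENSG00000137331, chromosome 6, 30743199 to 30744548, minus strand) was the member with the most RNA per length. It stood at 310.9, 263.5 and 247.9 CPM in DMSO and at 205.2, 217.8 and 270.4 CPM in CCS1477, replicates 1 to 3. CCS1477 3 lay above 2 of the DMSO libraries, so that the groups overlapped. The log2 fold change was -0.25 with a 95% interval from -0.51 to 0.01 (Benjamini-Hochberg adjusted p = 0.18 in edgeR). None of 16 alternatives brought IER3 past the threshold, and all 16 kept a negative sign.

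IER5 (ENSG00000162783, chromosome 1, 181088700 to 181092900, plus strand), the partner of HSF1, was at 64.54, 49.43 and 62.87 CPM in DMSO and 49.15, 64.03 and 66.05 CPM in CCS1477, replicates 1 to 3. One library of each group was low and the other two were high, and the ranges covered each other. The log2 fold change was 0.02 with a 95% interval from -0.28 to 0.32 (Benjamini-Hochberg adjusted p = 0.942 in edgeR), which leaves room for a change of up to about that size in either direction.

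ZFP36 (ENSG00000128016, chromosome 19, 39406847 to 39409412, plus strand), the founding member of the AU-rich element binding family, rose after CCS1477. It was at 42.03, 34.21 and 39.9 CPM in DMSO and at 53.86, 63.93 and 69.14 CPM in CCS1477, replicates 1 to 3. All CCS1477 libraries were above all DMSO libraries, with CCS1477 1 nearest to them. The mean went from 38.7 ± 4.05 to 62.3 ± 7.77 CPM (SD, n = 3), a log2 fold change of 0.69 ± 0.12 (SE, Benjamini-Hochberg adjusted p = 0.003 in edgeR). The call held in 16 of 16 alternatives, with log2 fold changes from 0.61 to 0.81.

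ZFP36L1 (ENSG00000185650, chromosome 14, 68787660 to 68796253, minus strand), which has the same kind of RNA-binding domain, went the other way in counts. It was at 138.8, 147.2 and 115.7 CPM in DMSO and at 95.26, 106.7 and 110.6 CPM in CCS1477, replicates 1 to 3. The groups did not overlap, but DMSO 3 and CCS1477 3 were close. The log2 fold change was -0.36 ± 0.11 (SE, Benjamini-Hochberg adjusted p = 0.0354 in edgeR). The call depended on how the data were handled: 9 of 16 alternatives did not reach the threshold, among them every omission of 1 library except DMSO 3, the fit with the replicate number as a block (adjusted p = 0.064) and scaling by library size (adjusted p = 0.0571).

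The deposited TPM gave ZFP36L1 a smaller difference than the counts. Its TPM were 69.54, 82.27 and 53.36 in DMSO and 44.92, 65.3 and 71.67 in CCS1477, replicates 1 to 3, and these ranges overlapped. The ratio of TPM to CPM moves with the transcript length that the authors' quantification used. It also moves with the TMM factor, which only the CPM carry and which was 0.9823 to 0.9853 in DMSO and 1.009 to 1.023 in CCS1477. A further term is the per-length total to which the TPM of a library are scaled, which all its genes share. For ZFP36L1 the ratio was 0.461 to 0.559 in DMSO and 0.472, 0.612 and 0.648 in CCS1477 replicates 1, 2 and 3. Between the groups it shifted by 0.19 on the log2 scale for ZFP36L1 and by 0.13 for ZFP36, against a median of 0.07 over all tested genes and 0.05 to 0.08 for the other tested members. ZFP36L1 has 2 RefSeq start sites in the promoter table, and whether their use changed was not tested.

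ZFP36L2 (ENSG00000152518, chromosome 2, 43222402 to 43226606, minus strand), the third relative, did not pass. It was at 63.52, 43.96 and 40.76 CPM in DMSO and 44.1, 42.27 and 50.17 CPM in CCS1477, replicates 1 to 3, with DMSO 1 the highest of the 6 and the rest intermingled. The log2 fold change was -0.12 with a 95% interval from -0.47 to 0.22 (Benjamini-Hochberg adjusted p = 0.64 in edgeR), and 0.11 without DMSO 1.

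**Figure D2:**
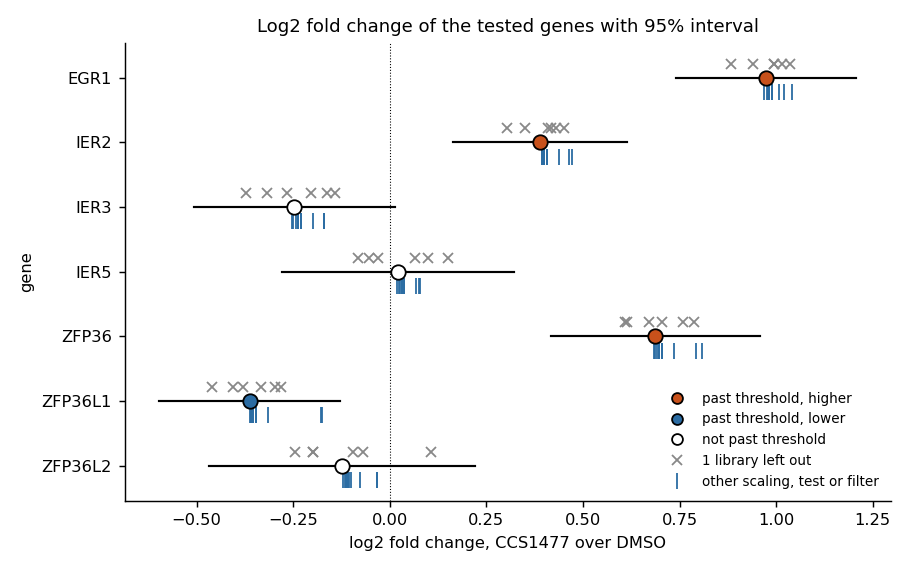
Log2 fold change of CCS1477 over DMSO on the x axis for the 7 tested genes, with the 95% interval as a line, crosses for fits with 1 library left out and ticks for other scalings, tests and filters. EGR1 (0.97), ZFP36 (0.69) and IER2 (0.39) stay right of 0 with every mark, and the marks of IER5 and ZFP36L2 fall on both sides of 0. The marks of IER3 and ZFP36L1 all lie left of 0, though the 95% interval of IER3 reaches 0.01.

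Within the ZFP36 family the balance of transcripts moved towards ZFP36. Per length, ZFP36 held 28.7% ± 4.14 of the summed TPM of the 3 genes in DMSO and 43.8% ± 1.83 in CCS1477, ZFP36L1 held 56.05% ± 5.6 and 43.2% ± 3.57, and ZFP36L2 held 15.2% ± 2.93 and 13 ± 2.07% (SD, n = 3). For ZFP36 and for ZFP36L1 the shares of the groups did not overlap (two-sided exact permutation p = 0.1 each, the smallest possible here), and for ZFP36L2 the exact permutation p was 0.5. The log2 ratio of ZFP36 to ZFP36L1, both in TPM, went from -0.97 ± 0.34 to 0.02 ± 0.18, and that of ZFP36 to ZFP36L2 from 0.92 ± 0.29 to 1.77 ± 0.19 (SD, n = 3, with p = 0.1 in the exact permutation test of either ratio). The family sum was 121.5 ± 18.3 TPM in DMSO and 139.3 ± 24.8 TPM in CCS1477 (exact permutation p = 0.4), while summed CPM were 222 ± 24.2 and 212 ± 18.4 (exact permutation p = 0.7), so that the sum had no direction common to both units.

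Among the IER genes IER2 alone passed the test, and its share of the family was larger after CCS1477. IER3 held 81.6% ± 1.98 of the summed TPM of IER2, IER3 and IER5 in DMSO and 75.1% ± 1.51 in CCS1477, and IER2 held 14.1% ± 1.42 and 20.2% ± 1.35 (SD, n = 3; either share gave the smallest possible exact permutation p, 0.1). The log2 TPM ratio of IER2 to IER5 rose by 0.39 and that of IER2 to IER3 by 0.64 in group means, with groups apart in both (exact permutation p = 0.1 for each). The ratio of IER3 to IER5 differed by -0.25 (exact permutation p = 0.3). The sum of the 3 was 446.4 ± 68.9 TPM in DMSO and 429.5 ± 48.4 TPM in CCS1477 (exact permutation p = 0.7).

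**Figure D3:**
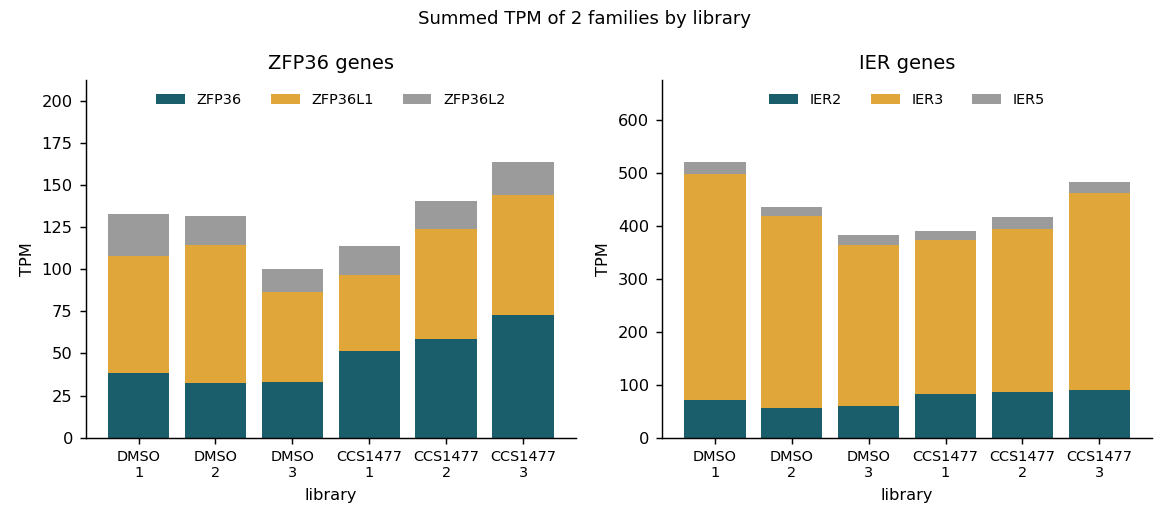
Stacked TPM (y axis) of the ZFP36 genes (left) and the IER genes (right) in each of the 6 libraries on the x axis. The ZFP36 segment runs from 32.22 to 38.42 TPM in DMSO and from 51.54 to 72.56 TPM in CCS1477, and IER3 makes up most of every IER bar.

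Ordered by TPM in DMSO, IER3 led at 364.8 ± 61.8 (the 97.9th percentile of tested genes), followed by ZFP36L1 at 68.4 ± 14.5, IER2 at 62.5 ± 7.15, ZFP36 at 34.5 ± 3.41, IER5 at 19.2 ± 2.49, EGR1 at 18.9 ± 3.23 and ZFP36L2 at 18.6 ± 5.37 (SD, n = 3). ZFP36L1 and IER2 were within their spread of each other, as were IER5, EGR1 and ZFP36L2. In CCS1477 the order of TPM was IER3 at 322.9 ± 42.6, IER2 at 86.4 ± 3.97, ZFP36 at 60.9 ± 10.7, ZFP36L1 at 60.6 ± 14, EGR1 at 38.6 ± 1.02, IER5 at 20.3 ± 2.86 and ZFP36L2 at 17.8 ± 1.36. EGR1 had left the lower cluster, and ZFP36 and ZFP36L1 were within their spread. EGR2 and EGR3 stayed under 0.6 TPM in every library.

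Across the 6 libraries the log2 CPM of the 3 risen members went together, with Pearson r of 0.95 for IER2 with ZFP36, 0.91 for EGR1 with ZFP36 and 0.80 for EGR1 with IER2. These 6 points share the difference between the groups, so the values are a description. IER3 went with ZFP36L1 (r = 0.79) and ZFP36L2 (r = 0.77), and IER5 had no r above 0.42 with any member. Among 11931 tested genes with at least 5 CPM, those most like EGR1 over the 6 libraries were PBRM1, a subunit of a SWI/SNF chromatin remodeller, with r = 0.998, NNT and the kinase ULK2. For IER2 they were RABEP2, ULBP2 and DMPK, for ZFP36 METRN, DCTN1 and HES7, and for ZFP36L1 MYC, EI24 and SH3RF2. For IER3 they were CLUH, PSMB2 and P4HB, for IER5 CNN2, HCFC1R1 and TOR4A, and for ZFP36L2 POR, HERC5 and EEF1A1P5. All of these r were at least 0.973, as can be reached by the nearest of so many genes over 6 points.

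Other immediate early genes, and the related lists further below, are given by their counts. These are to be read against the 7.23% of all tested genes that were higher and the 10.7% that were lower. The lists were chosen with earlier results of these data known, so that their counts are a description. Of 15 tested transcription factors, 3 were higher, 1 was lower and 11 did not pass, and the median log2 fold change was 0.06. The AP-1 subunits JUND, JUN and JUNB rose, with log2 fold changes of 0.53, 0.47 and 0.42, and FOSL2 fell, with -0.66. Without CCS1477 2 or CCS1477 3 no factor of this list was higher, and 1 was without DMSO 1 or DMSO 2. Of 20 tested effectors, 5 were higher, 2 were lower and 13 did not pass, with a median of 0.07. The matricellular gene CCN2, the gene of the nuclear protein CSRNP1 and the survival gene MCL1 rose, with log2 fold changes of 1.76, 0.87 and 0.45. TNFAIP3, an inhibitor of NF-κB signalling, and the ERK phosphatase gene DUSP6 fell, with -1.12 and -0.43. The other two that rose, named after their values were seen, were RHOB at 0.56 and CCN1 at 0.41. Lower effectors numbered 1 without DMSO 1, CCS1477 1 or CCS1477 2.

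Upstream of these genes, 0 of 18 kinases and SRF, TCF and CREB factors were higher and 3 were lower, and the median log2 fold change was -0.01. MAPK3, which encodes the kinase ERK1, fell from 88.9 ± 7.7 to 56.9 ± 5.93 CPM, RPS6KA5, the gene of the histone and CREB kinase MSK1, from 20.8 ± 1.1 to 11.3 ± 1.63 CPM, and the CREB relative ATF1 from 45.5 ± 1.53 to 31.9 ± 3.72 CPM (SD, n = 3). Their log2 fold changes were -0.65, -0.88 and -0.52 (Benjamini-Hochberg adjusted p = 0.00198, 0.00237 and 0.0101 in edgeR). The SRF coactivator MRTFA stood at 0.37 and did not pass (adjusted p = 0.0532 in the same edgeR test).

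Among EGR corepressors and genes described as EGR1 targets, 1 of 12 was higher, 3 were lower and 8 did not pass, with a median of -0.003. The growth factor gene TGFB1 rose, with a log2 fold change of 0.45, while the growth factor gene PDGFB, the adhesion receptor gene CD44 and the corepressor gene NAB1 fell, with -1.03, -0.69 and -0.46. TGFB1 was not called without CCS1477 2 or CCS1477 3, and 2 genes of the list were higher without DMSO 3. Of 15 genes around IER5 (IER5L, HSF1, heat shock genes and PP2A subunits), 3 were higher and 1 was lower. The chaperone genes HSPA1B, HSPA1A and HSPA8 rose, with log2 fold changes of 0.71, 0.28 and 0.28, and the small heat shock gene HSPB1 fell, with -0.48. HSPA1A and HSPA1B are near-identical copies, so that the split of reads between them is uncertain. On leaving out DMSO 1, CCS1477 2 or CCS1477 3, 1 gene of this list was higher, and lower genes ranged from 0 to 3 with 1 library left out: 0 without DMSO 1, CCS1477 1 or CCS1477 2, 2 without CCS1477 3 and 3 without DMSO 2.

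The list of mRNA decay machinery and other AU-rich element binding proteins gave no call. Of 21 genes for CCR4-NOT and PAN subunits, decapping factors, XRN1 and other AU-rich element binding proteins, edgeR called 0 higher and 0 lower, DESeq2 also called 0 and 0, and 1 had an unadjusted p below 0.05. The smallest adjusted p values were those of PAN2 at 0.27, DCP2 at 0.22, CNOT6L at -0.19 and CNOT6 at -0.18 on the log2 scale. With DMSO 3 left out, 2 were higher. A further list held 18 tested mRNAs that are described in general as bound by the ZFP36 family through AU-rich elements. Of these, 7 were lower, 1 was higher and 10 did not pass, and the median log2 fold change was -0.28. For both lists of this paragraph, the shares over all tested genes were 10.7% lower and 7.23% higher. Both lists were chosen with earlier results of these data known, so that the counts only describe them. The growth factor gene CSF2, the chemokine gene CXCL2 and the angiogenic factor gene VEGFA fell, with log2 fold changes of -2.21, -1.68 and -1.29, as did the chemokine gene CXCL8 and the protease gene PLAU, with -1.07 and -0.72. The cytokine gene IL11, which had 6 nonamers in its 3′ UTR, rose, with 1.81. Of the lower genes, CXCL2 had 5 nonamers, CSF2 had 3 and CXCL8 had 1. LIF and PLAUR, also lower and named after their values were seen, had 2 and 1. VEGFA and PLAU had 0 in the single 3′ UTR searched for each, of 387 and 932 bases. The 10 that did not pass are also named after their values were seen. Of these, CXCL1 and PIM1 had 3 nonamers each, HIF1A and E2F1 had 2 each, and CXCL3, PTGS2, BIRC3 and LATS2 had 1 each. IL6 and CCND1 had 0. Over all 19 listed mRNAs, with the untested TNF among them, 15 (78.9%) had the nonamer. Other transcripts of these genes were not searched, and whether the nonamers bear on the changes was not tested.

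**Figure D4:**
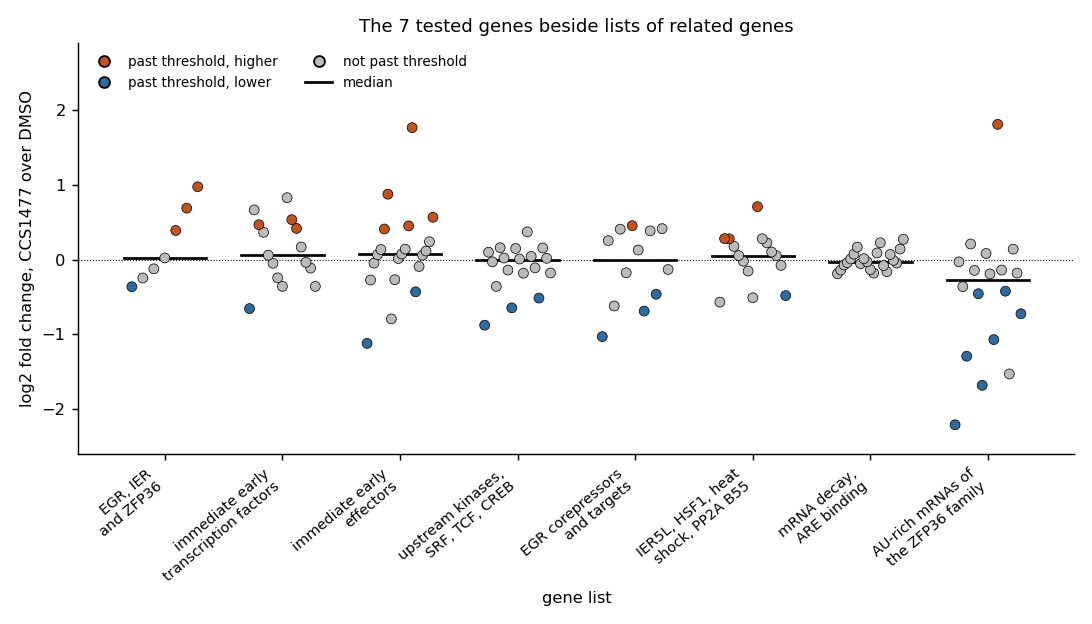
Log2 fold change of CCS1477 over DMSO (y axis) for the 7 tested EGR, IER and ZFP36 genes and for 7 lists of related genes (x axis), 1 point per tested gene, coloured by the test, with the median as a line. The mRNA decay genes lie close to 0, and the AU-rich mRNAs have the lowest median, -0.28. The lists were chosen with earlier results of these data known.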

How the data were processed

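Poly-A RNA of 6 DU145 samples, 3 with DMSO and 3 with CCS1477, was sequenced by the authors; groups and replicate numbers come from the sample titles. The authors deposited estimated counts per gene, not normalized, with 10.2% to 10.7% of nonzero values not exactly whole (no tolerance), and TPM. Reads were trimmed with Trimmomatic 0.39, per the submitters' processing notes; not given in the sources used here are the aligner, quantifier, build and strandedness. Coordinates of genes are those of the deposited table.

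Estimated counts were rounded. Genes passed edgeR's filterByExpr (minimum count 10, minimum total 15), which kept 14928 genes. CPM use TMM factors. Tests were edgeR 4.0.16 quasi-likelihood with Benjamini-Hochberg adjustment over all tested genes, without covariates, in R 4.3.3; standard errors and 95% intervals come from the test statistic. Family sums, shares and ratios were compared by two-sided exact permutation over samples. The edgeR step was checked on counts simulated with its own fitted dispersions and with larger changes than those of IER2 and ZFP36L1. That check does not speak for the calls of these genes. Alternatives were other scalings and filters, DESeq2 1.42.0, limma-voom (limma 3.58.1), limma on log2(TPM + 1) and log2(TPM + 0.1), a replicate block and leaving out each library; those for the gene lists were chosen after seeing the data.

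The members and lists were chosen with earlier results of these data known. Named genes are all members, up to 4 genes of each list with the lowest adjusted p, up to 2 called genes that moved against the leading one, and the 3 genes most correlated with each member; others are marked. Promoters are from RefSeq (GRCh38.p14) and 3′ UTRs from GENCODE 29 (GRCh38), whose start or end differs from the deposited table for 7 members.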

Additional observations from a re-analysis of the deposited data

How the results depend on the processing

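EGR1 and ZFP36 were called higher in all 16 alternatives, IER2 in 11 and ZFP36L1 lower in 7, and IER3, IER5 and ZFP36L2 in 0. With 1 library left out, members called higher numbered 2 to 3 and members called lower 0 to 1, and over all genes 487 to 1311 were higher and 925 to 1772 lower, against 1079 and 1597. ZFP36L1 alone was the lower member, and the count of lower members was 0 with library size scaling, the replicate block, log2(TPM + 1) and log2(TPM + 0.1). Limma on log2(TPM + 1) and log2(TPM + 0.1) called 293 and 280 of all genes higher and 427 and 410 lower. Differences of values that did not pass a test changed sign in some settings. With 1 library left out, IER5 ran from -0.083 to 0.15 on the log2 scale (negative without DMSO 2, CCS1477 2 or CCS1477 3) and ZFP36L2 from -0.245 to 0.106 (positive without DMSO 1). The IER sum differed by -48.4 to 19.9 TPM (positive without DMSO 1 or CCS1477 1), the share of EGR1 in its family by -0.517 to 0.133 percentage points (positive without DMSO 3 or CCS1477 1), and the log2 ratio of ZFP36L1 to ZFP36L2 by -0.343 to 0.046 (positive without DMSO 2 or CCS1477 1). The ZFP36 sum differed by -9.99 in CPM. The cause was not tested.

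For the gene lists, limma on log2(TPM + 1) and log2(TPM + 0.1) called 0 and 0 transcription factors higher, 3 and 3 effectors higher and 1 and 1 lower, 0 and 0 upstream genes lower, 0 and 0 EGR-related genes higher and 0 and 0 lower, and 1 and 1 heat shock and IER5-related genes higher and 0 and 0 lower. The replicate block gave 1 lower effector and 1 higher heat shock and IER5-related gene. Library size and upper quartile scaling gave 5 and 5 higher genes in the heat shock and IER5 list, and 1 upstream gene was higher with library size scaling, upper quartile scaling, DESeq2 and no filter. Without a filter, 2 EGR-related genes were higher and 3 heat shock and IER5-related genes lower. With 1 library left out, the higher and lower counts ran from 0 to 4 and 1 to 1 for transcription factors, 4 to 6 and 1 to 2 for effectors, 0 to 0 and 2 to 4 for upstream genes, 0 to 2 and 2 to 4 for EGR-related genes, 1 to 4 and 0 to 3 for the heat shock and IER5 list, 0 to 2 and 0 to 0 for mRNA decay genes, and 1 to 1 and 5 to 9 for AU-rich mRNAs.

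The labels do not say whether the replicate numbers pair the samples. Same-numbered libraries had correlations of -0.087, -0.196 and -0.007 of their deviations from the group mean. No sample correlated best with its own number, but groups of 3 are too small to decide the question. With the replicate block, EGR1, IER2 and ZFP36 were called higher as before, with log2 fold changes of 0.98, 0.39 and 0.68, while the call of ZFP36L1 was lost (-0.36, Benjamini-Hochberg adjusted p = 0.064 in edgeR). Depth limits EGR2 and EGR3, whose counts lay around the floor of 3. No member had a group of 4 or more samples, so single libraries were not tested as outliers. DMSO 3 had the fewest estimated counts, 8286883. It also had the lowest ratio of TPM to CPM of the 6 libraries for every tested member. For EGR1 that ratio was 0.414 in DMSO 3 and at least 0.458 elsewhere. The cause was not tested.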

Other observations

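FOS, KLF2, NR4A1, DUSP1 and EGR4 were chosen here after their values were seen. FOS, an immediate early gene like EGR1, had a mean of 3.47 ± 0.576 CPM in DMSO against 5.55 ± 1.05 CPM after CCS1477 (SD, n = 3). In CPM, which are not per length, FOS was far lower than EGR1. Its groups did not overlap, and it did not pass (log2 fold change 0.66 ± 0.26, SE, Benjamini-Hochberg adjusted p = 0.105 in edgeR). KLF2 stood at 0.83 with overlapping groups and adjusted p = 0.0543 in the same edgeR test, and NR4A1 and DUSP1 at 0.06 and 0.06. EGR4, the fourth EGR gene, had too few counts to be tested.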
